A study of Mus musculus with 6 samples.

Results

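Hyaluronan synthesis, breakdown and binding genes were examined in mouse embryonic fibroblasts with and without added p27. The set has 9 members, Cemip, Tmem2, Hyal1, Hyal2, Has1, Has2, Has3, Cd44 and Vcan, taken by gene symbol from the 24062 genes of the deposited table. The set was chosen by the measured difference of Cemip between p27OE and EV control, so that difference is given as a description without a test. The other 8 genes were listed with it for their roles in the same pathway. The study compared 3 libraries of C57BL/6 fibroblasts given p27 by lentivirus (p27OE, day 10) with 3 EV control libraries (day 10). The protein p27, encoded by Cdkn1b, is an inhibitor of cyclin-dependent kinases. The series design text calls the p27 cells non-senescent, whereas the sample titles and treatment protocol call them senescent. The titles of the EV control libraries carry a dataset number (11), and those of the p27OE libraries carry none. The labels do not say what this number marks, and any difference it stands for cannot be told apart from the group. The labels name no promoter for the introduced gene. They also do not say whether the libraries of a group came from separate embryos, cultures or transductions. The p-values therefore reflect the spread among 3 libraries a group, part of which may be technical.

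Hyaluronan is a long, unsulfated sugar chain of the extracellular matrix, extruded through the plasma membrane by the HAS enzymes as they build it. Fibroblasts are a main source of it in connective tissue. Breakdown begins outside the cell or at its surface, through hyaluronidases such as HYAL2 and through CEMIP and its membrane-anchored relative TMEM2, and ends in the lysosome, where HYAL1 acts. The chain is held at the cell by the receptor CD44 and cross-linked in the matrix by versican, the large proteoglycan encoded by Vcan.

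Promoter windows of 3 members are printed because these genes show the main patterns below: Cemip differed between the groups, while Cd44 and Vcan varied in opposite directions within both groups. The sequences are RefSeq's for GRCm38.p6, from 250 bases before to 50 bases after the transcript start, 5′ to 3′ on the gene's strand. RefSeq windows matched 6 of the 9 members: Cemip, Has1, Hyal1, Hyal2, Cd44 and Vcan. Cemip lies at chr7:84086456-84086755, Cd44 at chr2:102901616-102901915 and Vcan at chr13:89742463-89742762, all on the minus strand. Capitals mark the TATA box letters TATAAA.
Cemip: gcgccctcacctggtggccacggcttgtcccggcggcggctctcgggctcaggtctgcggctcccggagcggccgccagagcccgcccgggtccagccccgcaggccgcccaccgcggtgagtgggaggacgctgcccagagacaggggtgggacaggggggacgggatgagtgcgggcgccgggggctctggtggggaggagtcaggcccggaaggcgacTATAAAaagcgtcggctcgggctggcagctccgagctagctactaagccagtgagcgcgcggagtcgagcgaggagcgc
Cd44: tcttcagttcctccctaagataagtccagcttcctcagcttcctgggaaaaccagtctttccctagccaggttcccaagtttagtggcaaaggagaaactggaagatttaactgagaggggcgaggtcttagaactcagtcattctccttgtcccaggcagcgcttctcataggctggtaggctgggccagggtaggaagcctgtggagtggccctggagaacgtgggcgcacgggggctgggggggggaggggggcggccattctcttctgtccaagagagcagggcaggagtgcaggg
Vcan: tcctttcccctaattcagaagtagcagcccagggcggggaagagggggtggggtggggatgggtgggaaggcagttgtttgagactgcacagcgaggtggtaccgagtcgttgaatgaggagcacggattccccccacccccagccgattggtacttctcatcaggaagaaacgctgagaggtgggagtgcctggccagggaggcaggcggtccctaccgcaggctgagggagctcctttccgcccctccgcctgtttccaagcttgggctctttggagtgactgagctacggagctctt
The Cemip window holds TATAAA once, beginning 29 bases before the start site. None of the other 5 member windows holds it on either strand. Among 32851 promoter windows of this length, 13.6% hold TATAAA on either strand. The AP-1 letters TGANTCA, found in 7.81% of all windows, were in none of the 6. The TEAD letters GGAATG, found in 14.7% of all windows, were in 1, that of Hyal2. The motifs searched do not overlap one another in these windows. The Cemip window was 73.7% G and C, against a median of 52.7% over all windows.

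Libraries held 43621464 to 48014367 counts in p27OE and 39183624 to 61219345 counts in EV control. Levels are given as CPM, a gene's count scaled to the size of its library, with TMM factors. Cdkn1b was at 167, 232 and 337 CPM in p27OE and at 43.9, 31.5 and 32.3 CPM in EV control, so every p27OE library lay above every EV control library, as the labels imply. The counts do not tell endogenous from introduced Cdkn1b. All 10 fibroblast markers were detected, with a summed level of 45521 to 47801 CPM in p27OE and 41155 to 59331 CPM in EV control. Dcn and Lum ranged widely over the libraries, from 8.27 to 92.7 CPM and from 4.18 to 85.4 CPM. The libraries also differed within both groups in transcripts of the Y chromosome. Summed over Uty, Kdm5d, Ddx3y and Eif2s3y, their level in CPM was 1.95, 57.2 and 137 in p27OE 1, 2 and 3, and 0.125, 126 and 124 in EV control 1, 2 and 3. Results that move with this level are given with it below.

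Cemip, which encodes a secreted protein needed for the breakdown of hyaluronan by skin fibroblasts, was at 222, 215 and 289 CPM in p27OE and at 93.4, 85.3 and 87.8 CPM in EV control. The groups did not overlap, and the controls lay within a narrow range. Cemip averaged 242 ± 40.3 CPM in p27OE and 88.8 ± 4.15 CPM in EV control (SD, n = 3 each), a ratio of means of 2.73. The log2 fold change was 1.45 ± 0.13 (SE), with no test because this difference prompted the set. A difference was seen at both low and high Y-linked level. It was 1.25 log2 units between p27OE 1 and EV control 1, both of low Y-linked level, and 1.74 between p27OE 3 and the mean of EV control 2 and 3, all of high level. Each value rests on 1 p27OE library, p27OE 2 enters neither, and the part of this level in the Cemip difference was not tested. Leaving out any one library gave 1.30 to 1.51. In these bulk libraries a change in the number of cells that express a gene and a change in its RNA per cell cannot be told apart. The gene spans chromosome 7, 83932857 to 84086502 (GRCm38, minus strand).

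**Figure D1:**
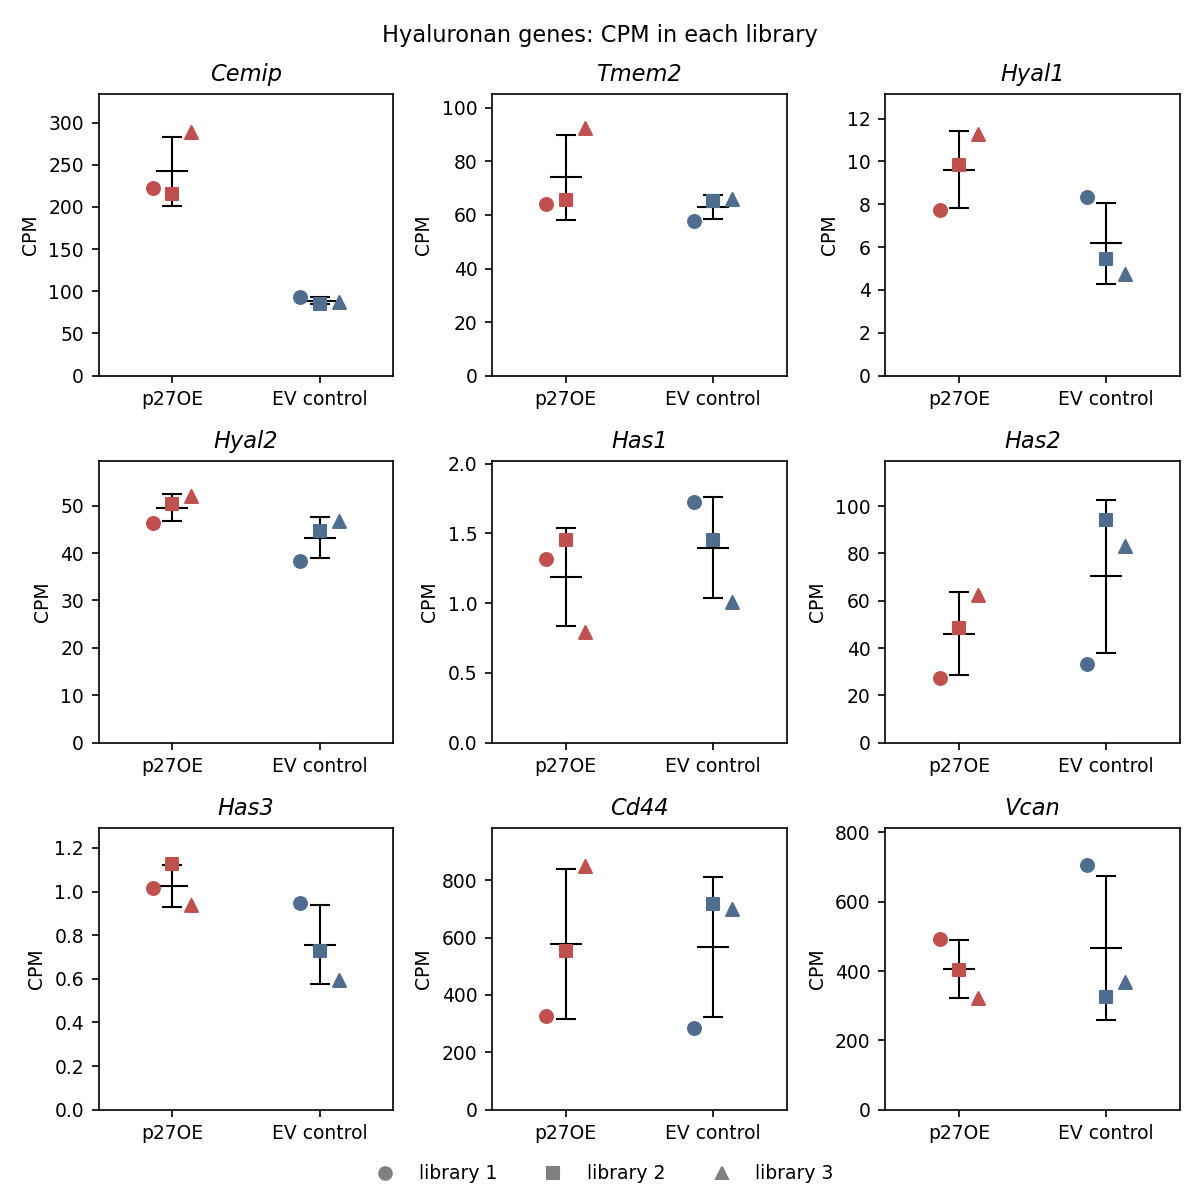
CPM of each of the 9 hyaluronan genes (vertical axes, each from 0) in p27OE (red, left) and EV control (blue, right). Circles, squares and triangles are libraries 1, 2 and 3, and black bars give the mean and SD (n = 3 each). The groups of Cemip, whose difference prompted the set, are the 1 pair that does not overlap, beside 33.3% of all genes tested. Cd44, Has2 and Vcan spread widely within both groups.

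Of the other 8 members, 0 passed (edgeR's quasi-likelihood test, Benjamini-Hochberg adjusted p under 0.05), beside 2.61% of all 13990 genes tested. Hyal1 alone had an unadjusted p under 0.05, which 26.0% of all genes had by edgeR. DESeq2 and limma-voom also called 0 of the 8, and 16.6% and 3.0% of all genes. The median log2 fold change of these 8 genes was 0.11, against 0.01 over all genes, with 5 above 0 and 3 below. Cemip was the 1 member of 9 whose groups did not overlap in CPM, where 33.3% of all genes did not overlap. Since the set was prompted in this same comparison, nothing is read from these counts.

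Tmem2, which encodes the cell-surface relative of CEMIP (current symbol Cemip2; chromosome 19, 21778342 to 21858360), was at 64.1, 65.7 and 92.3 CPM in p27OE and 57.7, 65.3 and 65.9 CPM in EV control. Only p27OE 3 stood clear of the controls, and p27OE 1 and 2 lay among them. The log2 fold change was 0.23 with an SE of 0.15 (edgeR adjusted p = 0.39), and it was 0.04 without p27OE 3. The relation of Cemip to Tmem2 thus differed between the groups in every library. Per length of all annotated exons, Cemip stood at 2.42, 2.28 and 2.18 times Tmem2 in p27OE. In EV control it stood at 1.13, 0.909 and 0.929 times Tmem2. With the longest transcript as the length the ratio was 2.93 to 3.26 in p27OE and 1.22 to 1.52 in EV control. This ratio contains the Cemip difference and was not tested.

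The hyaluronidase genes had log2 fold changes above 0 without passing. Hyal2, whose enzyme is held at the cell surface by a lipid anchor, was at 46.4, 50.4 and 52.0 CPM in p27OE and 38.4, 44.6 and 46.8 CPM in EV control. The ranges met only at p27OE 1 and EV control 3, and the log2 fold change was 0.20 with an SE of 0.10 (edgeR adjusted p = 0.25). It was 0.10 without EV control 1 and 0.16 to 0.26 without any one of the others. Hyal1, the lysosomal hyaluronidase, was at 7.75, 9.82 and 11.3 CPM in p27OE and 8.33, 5.46 and 4.74 CPM in EV control. EV control 1 lay above p27OE 1, and the other EV control libraries lay below all p27OE libraries. The log2 fold change was 0.64 with an SE of 0.25 (edgeR adjusted p = 0.174). It passed without EV control 1 (0.90, edgeR adjusted p = 0.0419) and without both libraries numbered 1 (1.03, edgeR adjusted p = 0.025), where 12.9% and 16.7% of all genes passed. In the libraries of low Y-linked level the difference was −0.10 log2 units, and in those of high level it was 1.14. Both genes lie close together on chromosome 9, Hyal2 at 107567945 to 107572779 and Hyal1 at 107576927 to 107581710. The Hyal1 count is uncertain, because 50.8% of its annotated exon bases also belong to Naa80 on the same strand, and 4.21% to Hyal3. Nat6, an older symbol that RefSeq lists for both Naa80 and Hyal1, had its own row, with 21.1, 20.2 and 20.6 CPM in p27OE and 15.9, 14.5 and 12.8 CPM in EV control.

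Among the synthases, Has2 supplied nearly all of the message. Per length, it made up 93.5%, 95.8% and 97.9% of the summed Has1, Has2 and Has3 level in p27OE, and 93.7%, 98.1% and 98.4% in EV control. Has2, the main hyaluronan synthase of embryonic mesenchyme, was at 27.5, 48.4 and 62.3 CPM in p27OE and 33.4, 94.2 and 83.3 CPM in EV control. Both libraries numbered 1 were low, and EV control 2 and 3 lay above every p27OE library. The log2 fold change was −0.61 with an SE of 0.44 (edgeR adjusted p = 0.431). Leaving out one library at a time moved it between −0.97 (without EV control 1) and −0.34 (without EV control 2), and 0 of these 6 fits passed. Has2 differed by −0.28 log2 units at low Y-linked level and by −0.51 at high level. When the Y-linked level entered the model, Has2 passed at −0.37 ± 0.12 (SE; edgeR adjusted p = 0.0481), and without both libraries numbered 1 it passed at −0.70 ± 0.14 (SE; edgeR adjusted p = 0.0344). In these models 34.0% and 16.7% of all genes passed. Has2 spans chromosome 15, 56665627 to 56694539, and 4.30% of its exon bases face the antisense gene Has2os, which stayed under 0.27 CPM in every library.

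The other synthase genes were near 1 CPM. Has1 had 61, 71 and 33 counts in p27OE and 69, 88 and 46 counts in EV control, and Has3 had 47, 55 and 39 counts in p27OE and 38, 44 and 27 counts in EV control. In CPM neither gene's groups separated. Those of Has3 met only at p27OE 3 (0.937 CPM) and EV control 1 (0.950 CPM). Log2 fold changes were −0.23 ± 0.34 for Has1 (SE; edgeR adjusted p = 0.715) and 0.44 ± 0.29 for Has3 (SE; edgeR adjusted p = 0.381). Leaving out one library moved Has1 between −0.41 (without EV control 3) and −0.01 (without p27OE 3), and Has3 between 0.30 and 0.62. The Has3 count is uncertain, since 5.52% of its exon bases face Chtf8 on the opposite strand, a gene at 147 to 159 CPM in these libraries.

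Cemip and Has2 gave each library a ratio of a breakdown gene to the main synthase gene. Per length, Cemip stood at 2.81, 1.54 and 1.60 times Has2 in p27OE and at 0.969, 0.314 and 0.365 times Has2 in EV control. Every p27OE library lay above every EV control library. The size of the ratio depends on the lengths used. With the longest transcript as the length it was 4.83, 2.65 and 2.76 in p27OE and 1.67, 0.539 and 0.628 in EV control. The ratio was chosen after its values were seen, contains the Cemip difference and was not tested.

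Cd44, the main cell-surface receptor for hyaluronan (chromosome 2, 102811141 to 102901665), was at 328, 554 and 850 CPM in p27OE and 286, 717 and 698 CPM in EV control. The lowest library of each group was number 1, and the groups overlapped throughout. The mean was 577 ± 262 CPM in p27OE and 567 ± 244 CPM in EV control (SD, n = 3 each). The log2 fold change was 0.03 with an SE of 0.45 (edgeR adjusted p = 0.979). It was −0.36 without p27OE 3, −0.31 without EV control 1 and −0.03 without both libraries numbered 1. When the Y-linked level entered the model, Cd44 passed at 0.23 ± 0.06 (SE; edgeR adjusted p = 0.0325). From the lowest Cd44 level to the highest, the libraries were EV control 1, p27OE 1, p27OE 2, EV control 3, EV control 2 and p27OE 3, which is also their order in Y-linked level. EV control 2 and 3 were close in Cd44 (717 and 698 CPM) and in Y-linked level (126 and 124 CPM). How many of all genes share this order or its reverse was not counted.

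Vcan (chromosome 13, 89655312 to 89742509) ran the other way. It was at 492, 402 and 323 CPM in p27OE and 705, 325 and 369 CPM in EV control. The highest library of each group was number 1, the groups overlapped, and the order of the 6 libraries was the exact reverse of that of Cd44. The log2 fold change was −0.20 with an SE of 0.32 (edgeR adjusted p = 0.732), and it was 0.21 without EV control 1, −0.06 without p27OE 3, −0.41 without EV control 2 and 0.05 without both libraries numbered 1. When the Y-linked level entered the model it was −0.25 ± 0.10 (SE; edgeR adjusted p = 0.081). Per length, Cd44 stood at 1.42, 2.94 and 5.62 times Vcan in p27OE 1, 2 and 3 and at 0.865, 4.71 and 4.04 times Vcan in EV control 1, 2 and 3. The groups overlapped in this ratio, and its lowest library in each group was again number 1.

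**Figure D2:**
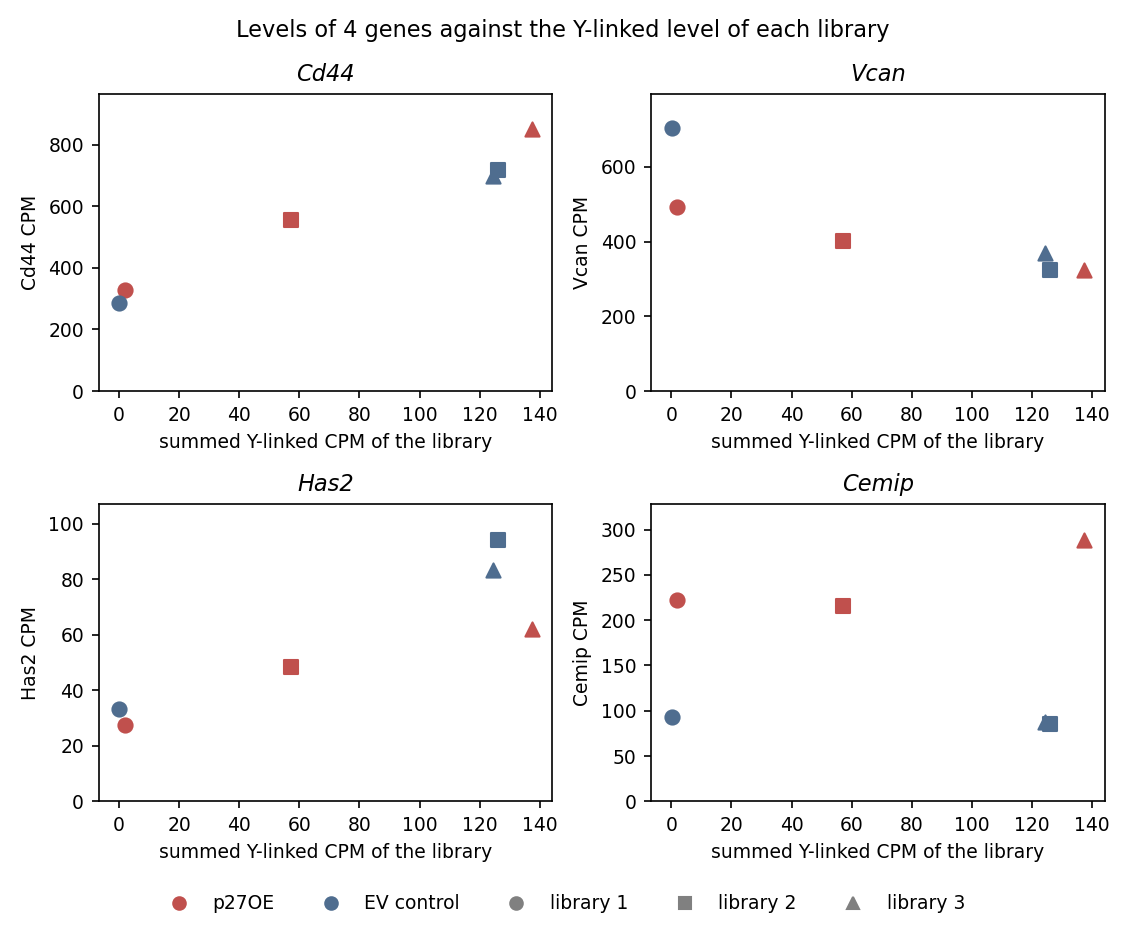
CPM of Cd44, Vcan, Has2 and Cemip (vertical axes, from 0) against the summed CPM of 4 Y-linked genes (horizontal axis) in each library, with p27OE in red and EV control in blue. Cd44 is lowest and Vcan highest in the 2 libraries near 0 on the horizontal axis, p27OE 1 and EV control 1. Cemip is higher in p27OE 1 than in EV control 1, and in p27OE 3 than in EV control 2 and 3. This Cemip difference prompted the set and was not tested.

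Markers of other cell types were set beside these genes. Of the 12 macrophage, 7 endothelial, 8 mesothelial and 7 cartilage genes tested, 0 passed, beside 2.61% of all genes, and nothing is read from this count. The 14 macrophage genes in the table summed to 20.2, 29.9 and 36.5 CPM in p27OE 1, 2 and 3 and to 97.6, 24.0 and 18.7 CPM in EV control 1, 2 and 3. Among them, Aif1 and Fcgr1 were at 0 in some libraries, and Lyz2 ranged from 7.33 to 34.3 CPM. Cd44 was lowest and Vcan highest in EV control 1, where this sum was highest. In p27OE 3, next in the sum at 36.5 CPM, Cd44 was highest and Vcan lowest. In p27OE 1, at 20.2 CPM, both genes lay closest to their levels in EV control 1. The 8 cartilage genes summed to 436 to 813 CPM in p27OE and 280 to 502 CPM in EV control, and Col2a1 alone ranged from 202 to 646 CPM. The 11 endothelial genes summed to 53.1 to 80.3 CPM in p27OE and 64.8 to 81.9 CPM in EV control. Pecam1 and Cdh5 were under 0.18 CPM in every library and Cldn5 was at 0, whereas Eng ranged from 20.0 to 37.5 CPM and Flt1 from 20.4 to 43.5 CPM. The 9 mesothelial genes summed to 37.2 to 41.2 CPM in p27OE and 26.9 to 47.8 CPM in EV control. Calb2 was at 0, whereas Krt19 ranged from 14.5 to 36.2 CPM and Msln from 4.06 to 9.04 CPM. The part of these cell types and of the Y-linked level in the values of Cd44, Vcan, Has2 and Hyal1 was not tested beyond the fits given.

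**Figure D3:**
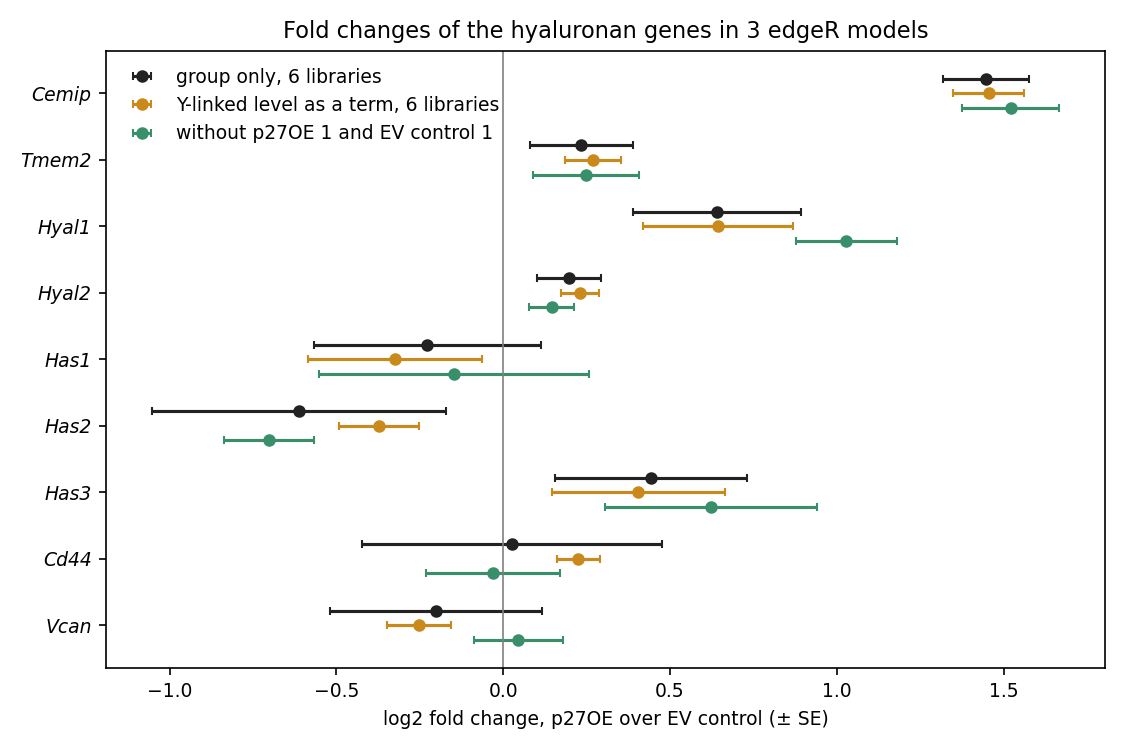
Log2 fold change of each member, p27OE over EV control, with its SE (horizontal axis) in 3 edgeR models: group only over all 6 libraries, the Y-linked level added as a term, and p27OE 1 and EV control 1 left out. Cemip stays between 1.45 and 1.52, Has2 stays below 0, and Cd44 and Vcan lie within 0.26 of 0 in every model.

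When the Y-linked level entered the model, 4 of the 8 members other than Cemip passed, beside 34.0% of all genes. Tmem2 (0.27 ± 0.08), Hyal2 (0.23 ± 0.06) and Cd44 were higher in p27OE, and Has2 was lower (log2 fold change ± SE; edgeR adjusted p = 0.0426, 0.0196, 0.0325 and 0.0481). Without both libraries numbered 1, Hyal1 passed as higher and Has2 as lower.

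Levels were compared between genes per length, as TPM (counts per kilobase of annotated exon, scaled to the same total in each library). In p27OE the order of mean levels was Cd44 (312 TPM), Vcan (104), Cemip (73.1), Hyal2 (55.7), Has2 (39.9), Tmem2 (32.1), Hyal1 (9.40), Has1 (0.982) and Has3 (0.598). Neighbours whose libraries overlapped were Vcan and Cemip, Has2 and Tmem2, and Has1 and Has3. In EV control the order was Cd44 (300.1 TPM), Vcan (118), Has2 (59.5), Hyal2 (47.5), Tmem2 (26.8), Cemip (26.4), Hyal1 (5.98), Has1 (1.13) and Has3 (0.433). There the libraries of Cd44 and Vcan, of Has2 and Hyal2, and of Tmem2 and Cemip overlapped. Cemip thus ranked 3 of 9 in p27OE, ahead of Hyal2, Has2 and Tmem2, and 6 of 9 in EV control. It made up 43.5%, 40.7% and 44.3% of the summed Cemip, Tmem2, Hyal1 and Hyal2 level in p27OE. In EV control its share was 27.02%, 23.5% and 23.6%. With the longest transcript as the length, Cemip averaged 93.3 TPM in p27OE and 33.5 TPM in EV control, and ranked 2 of 9 in p27OE and 5 of 9 in EV control. It then stood above Vcan (90.1 TPM) in p27OE, with overlapping libraries, and above Tmem2 (25.2 TPM) in EV control, with no overlap. Tmem2 (30.4 TPM) and Has2 (29.6 TPM) also changed places in p27OE. The share of Cemip in the 4 breakdown genes became 50.2% to 53.6% in p27OE and 31.0% to 35.1% in EV control.

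**Figure D4:**
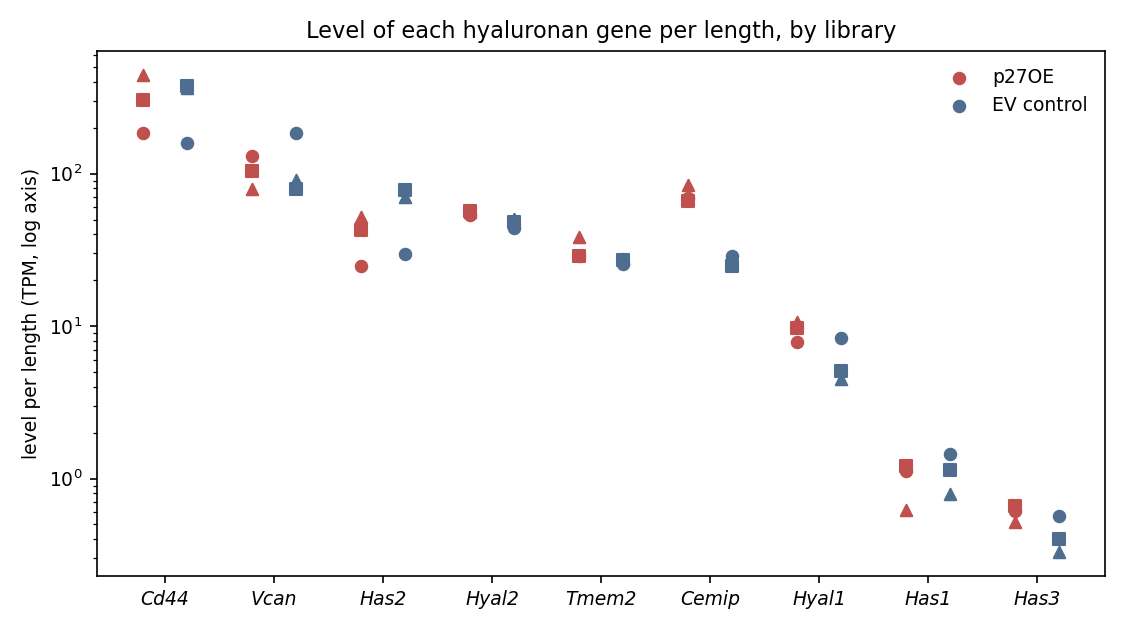
Level of each member per length (TPM, log axis) in the libraries of p27OE (red, left) and EV control (blue, right), ordered by the EV control mean; circles, squares and triangles are libraries 1, 2 and 3. Cd44 has the highest means, 312 TPM in p27OE and 300.1 TPM in EV control, and Has1 and Has3 lie between 0.33 and 1.45 TPM.

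The wider pathway was taken from 5 lists with 48 further genes, of which 37 had enough counts to test. Of these, 0 rose and 2 fell in p27OE (edgeR adjusted p under 0.05), beside 1.77% of all genes higher and 0.843% lower. Their median log2 fold change was 0.08, against 0.01 over all genes, with 21 above 0 and 16 below. Ezr, which encodes ezrin, a linker between CD44 and the actin cytoskeleton, was at 34.3, 35.3 and 35.9 CPM in p27OE and 51.1, 53.9 and 52.1 CPM in EV control. The groups were far apart and each was tight, and Ezr fell by 0.57 on the log2 scale, with an SE of 0.06 (edgeR adjusted p = 0.028). Itih2, a heavy chain that becomes bound to hyaluronan in the matrix, was at 17.3, 19.8 and 17.0 CPM in p27OE and 36.3, 30.9 and 30.2 CPM in EV control. It fell by 0.85 on the log2 scale (SE 0.11; edgeR adjusted p = 0.0303). Each call held without EV control 1 and was lost when any one of the other 5 libraries was left out, with the fold change of Ezr between −0.61 and −0.55 and that of Itih2 between −0.94 and −0.78.

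In the synthesis list, whose enzymes make the sugar nucleotide precursors, 0 of 8 genes passed, 6 above 0 and 2 below. Gfpt1, the entry enzyme of the hexosamine pathway, was at 137, 138 and 170 CPM in p27OE and 130, 123 and 126 CPM in EV control, with no overlap (log2 fold change 0.23 ± 0.10, SE; edgeR adjusted p = 0.215). The log2 fold changes of the list, which includes Ugdh for UDP-glucuronic acid, lay between −0.21 and 0.23. In the breakdown list all 4 tested genes were above 0 and 0 passed. Of all genes 2.61% passed, and nothing is read from the counts of these short lists. Hexa, a subunit of the lysosomal enzyme that trims hyaluronan fragments, was at 140, 143 and 167 CPM in p27OE and 114, 109 and 111 CPM in EV control. Its groups did not overlap, and its log2 fold change was 0.43 with an SE of 0.09 (edgeR adjusted p = 0.0565). It passed in 6 of the alternative fits, with adjusted p from 0.000981 (DESeq2) to 0.0451 (edgeR with library totals). Of all genes, 16.6% passed with DESeq2, 34.0% with the Y-linked term, 16.7% without both libraries numbered 1 and 12.9% without EV control 1. The replicate block called 2410 and library totals called 313 of 13990 genes. Hyal3, at 0.20 to 0.50 CPM, had a log2 fold change of 1.003 with an SE of 0.33 (edgeR adjusted p = 0.123) and shares exon bases with Hyal1. Of the 11 listed genes that were not tested, Hyal4, Hyal5, Spam1 and Ambp had no count in any library, and each of the others had at most 13 counts in a library.

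Of the 6 proteases that cut versican and aggrecan, 0 passed, beside 2.61% of all genes. Adamts20 (−0.91 ± 0.40, SE; edgeR adjusted p = 0.212) and Adamts4 (−0.27 ± 0.13, SE; edgeR adjusted p = 0.227) had the smallest p. In the receptor list, Ezr was the 1 of 10 tested genes that passed. Itih2 was the 1 of 9 in the matrix list, and nothing is read from these counts. When the Y-linked level entered the model, 9 of the 37 genes passed as higher and 8 as lower, beside 18.0% and 16.0% of all genes.

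**Figure D5:**
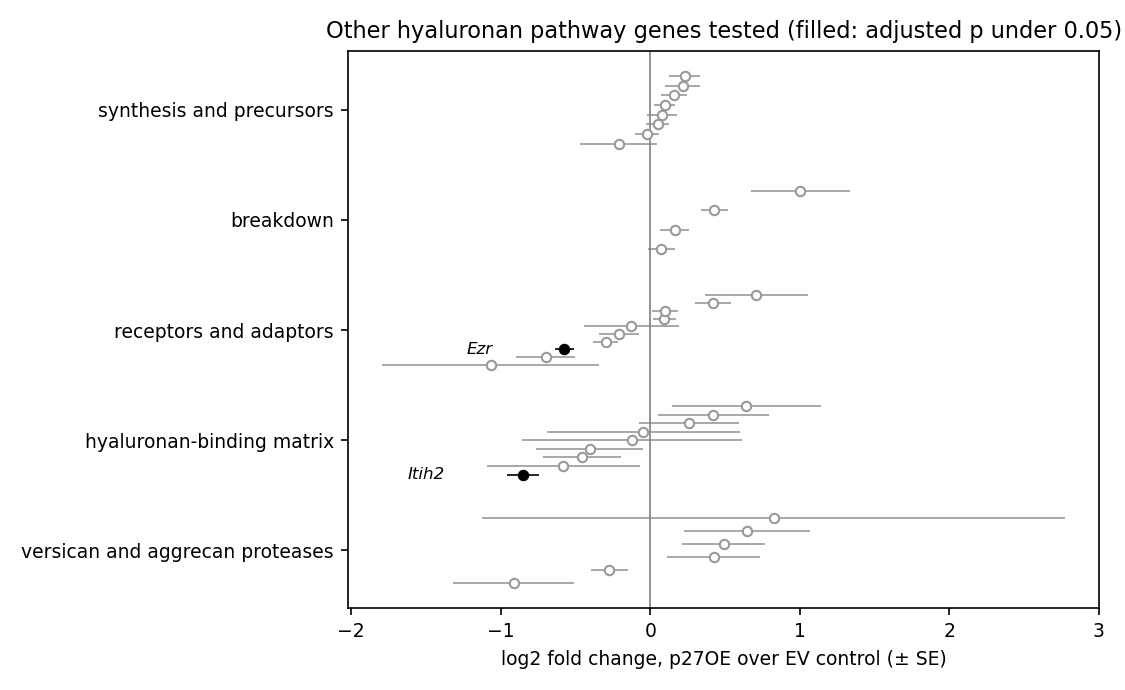
Log2 fold change, p27OE over EV control, with its SE (horizontal axis) for the 37 tested pathway genes outside the 9 members, in their 5 lists. Filled points, Ezr and Itih2, have an adjusted p under 0.05, and both lie below 0.

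The genes whose pattern was most like that of Cemip were Tmco3, Lynx1, Rabac1, Zdhhc24 and Snx15. Their Pearson r with Cemip was 0.999, 0.998, 0.998, 0.997 and 0.997 over the log2 CPM of the 6 libraries, the highest among 10372 genes. These libraries fall into the 2 groups that Cemip separates, so the value mainly restates that difference. Lynx1 was at 63.5, 61.7 and 73.5 CPM in p27OE and 39.3, 36.2 and 35.9 CPM in EV control, a log2 fold change of 0.84 ± 0.09 (SE). Tmco3 was at 62.6, 62.2 and 70.9 CPM in p27OE and 42.3, 40.6 and 42.3 CPM in EV control, a log2 fold change of 0.64 ± 0.08 (SE). The fold changes of Rabac1, Zdhhc24 and Snx15 were 0.28, 0.55 and 0.24 on the log2 scale. All 5 differences were smaller than that of Cemip.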

How the data were processed

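RNA was sequenced from 6 libraries of mouse embryonic fibroblasts, 3 p27OE and 3 EV control, prepared by TruSeq RNA library kit (v2) per the labels' protocols. The authors deposited a table of raw read counts, 1 row per gene symbol. Per the submitters' processing notes, mm10 was used with featureCounts 1.4.6, Subread, Bowtie2 2.2.6 and TopHat2 2.0.14; annotation and strand setting are not given in the sources used here, so overlapping genes are uncertain. Precision is limited by the 3 libraries a group and by depth, 39183624 to 61219345 counts.

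Here edgeR's filterByExpr kept 13990 genes (99.976% of counts), which held all 9 members. They were scaled by TMM and tested with edgeR 4.0.16 (robust glmQLFit, glmQLFTest, two-sided; R 4.3.3), group as the only term, after a test on simulated data. SE is the log2 fold change over the square root of F. P-values were adjusted by Benjamini-Hochberg over all genes. Log2 CPM used a prior count of 2. TPM and coordinates used GENCODE M21 (GRCm38, the assembly of mm10); 23685 symbols matched, 22750 exactly. Alternatives were other scalings and filters, DESeq2 1.42.0, limma-voom 3.58.1, the replicate block, the Y-linked level as a linear term, both libraries numbered 1 left out, and each library left out. Named genes were the members, Cdkn1b, each wider list's called genes (otherwise the 2 of smallest p), and the 5 most like Cemip at a mean log2 CPM of at least 2. The members, lists and alternatives were chosen with earlier results of these data known. One gene that the naming rule takes is not reported here by name and is part of the counts only.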

Additional observations from a re-analysis of the deposited data

How the results depend on the processing

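The 365 genes called over all genes became 2321 with DESeq2, 2410 with the replicate block, 2334 without both libraries numbered 1, 4761 with the Y-linked term, and 1 to 1827 when each library was left out (1827 without EV control 1, at most 2 otherwise). The 0 called members other than Cemip became 1 with the replicate block, 4 with the Y-linked term, 2 without both libraries numbered 1, and 0 to 1 with each library left out. The 2 called wider genes became 6 with DESeq2, 8 with the block, 17 with the Y-linked term, 7 without both libraries numbered 1, and 0 to 4 with each left out. The causes were not tested. Has2 passed under the block (−0.56), without both libraries numbered 1 (−0.70) and with the Y-linked term (−0.37). Tmem2 (0.27), Hyal2 (0.23) and Cd44 (0.23) passed with the Y-linked term, and Hyal1 passed without both libraries numbered 1 (1.03) and ranged from 0.48 to 0.90 with each library left out. Cd44 changed sign without the filter (−9e-05) and without both libraries numbered 1 (−0.0308), and ranged from −0.36 to 0.29 with each library left out; Vcan changed sign without both libraries numbered 1 (0.0458) and ranged from −0.41 to 0.21. Neither had a call in these fits. With each library left out, Cdkn1b ranged from 2.48 to 2.97 and passed in 1 of the 6 fits, that without EV control 1; it passed under every other alternative, at 2.73 to 3.14. With the longest transcript as length, some mean levels left the range that their libraries had with exon length. These were Cemip (93.3 TPM), Has3 (0.479) and Hyal2 (45.9) in p27OE, and Cemip (33.5), Tmem2 (25.2) and Hyal2 (38.9) in EV control. The other means also changed, but within that range. Has2 went from 39.9 to 29.6 TPM in p27OE and from 59.5 to 43.9 TPM in EV control. Of 206 fits of the other named genes, 165 kept their side of the threshold, 25 lost a call, 16 gained one and 0 changed sign. Deviations from the group mean correlated across genes with r = 0.67, 0.04 and 0.50 between libraries numbered 1, 2 and 3, so those numbered 2 did not deviate together. EV control 2 was closest to p27OE 3 (0.56), and replicate numbers were not treated as pairing the libraries. Has1 and Has3 rest on 27 to 88 counts a library, and Has3 was not tested under the stricter filter (1 CPM in 3 libraries).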
